A study of Mus musculus with 155 samples.

Results

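Glycogen is the branched glucose polymer in which cells store glucose. Glucose 6-phosphate is turned into glucose 1-phosphate by phosphoglucomutase and into UDP-glucose by UDP-glucose pyrophosphorylase, which glycogen synthase and the branching enzyme then build into the polymer. Glycogen phosphorylase releases it again, and targeting subunits of protein phosphatase 1 (PP1) bring the phosphatase to glycogen, where it activates the synthase and inactivates the phosphorylase. The liver and skeletal muscle are the main stores, and in other cells, glial cells among them, the store is smaller.

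Of the 9 genes described here, Pgm1 and Pgm2 belong to the phosphoglucomutase family. Ugp2 codes for UDP-glucose pyrophosphorylase, Gys1 for the glycogen synthase of muscle and most other tissues, and Gbe1 for the branching enzyme. Ppp1r3b and Ppp1r3c code for PP1 targeting subunits, and Pygl and Pygb for the phosphorylases first described in liver and brain. The set was 9 of the 55471 genes in each count table and was found by Ensembl identifier. The set was selected on the counts of undifferentiated embryonic stem cells (ESCs), because Pgm1 and Ppp1r3b were higher in cells with H3.3K27M than in cells with WT-H3.3. Values of that contrast are therefore a description of the choice, given without a test. The cells were KH2 mouse ESCs with 1 Dox-inducible extra copy of H3.3, tagged with SNAP and HA, that was wild type (WT-H3.3) or carried methionine (H3.3K27M) or leucine (H3.3K27L) at lysine 27. ESCs of these 3 lines, and WT-H3.3 ESCs given GSK343, which inhibits the PRC2 methyltransferase, were collected after 4, 8, 24 and 72 h of Dox with 2 replicates each, which gave 32 libraries. The 3 lines were also differentiated with retinoic acid (RA), and the WT-H3.3 and H3.3K27M lines toward oligodendrocyte precursor cells (OPCs), each with 1 library at 24 h and 1 at 72 h of Dox, which gave 6 RA and 4 OPC libraries. Every group, the WT-H3.3 controls included, thus expressed a tagged H3.3 under Dox. The methods describe biological replicates made weeks apart, and in RA-treated cells and OPCs the libraries of different Dox times stood in as replicates.

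The names Pgm1 and Pgm2 swap between annotations. Pgm1 here is ENSMUSG00000029171 on chromosome 5 (64484175 to 64519594, plus strand), the counterpart of human PGM2, and Pgm2 is ENSMUSG00000025791 on chromosome 4 (99602019 to 99659899, plus strand), the counterpart of human PGM1. Coordinates are those of mm9 (NCBIM37). Ugp2 (ENSMUSG00000001891) lies on chromosome 11 (21221141 to 21271204, minus), Gys1 (ENSMUSG00000003865) on chromosome 7 (52690214 to 52711989, plus) and Gbe1 (ENSMUSG00000022707) on chromosome 16 (70314194 to 70569961, plus). Ppp1r3b (ENSMUSG00000046794) lies on chromosome 8 (36438795 to 36451178, plus) and Ppp1r3c (ENSMUSG00000067279) on chromosome 19 (36806227 to 36811143, minus). Pygl (ENSMUSG00000021069) lies on chromosome 12 (71291798 to 71332475, minus) and Pygb (ENSMUSG00000033059) on chromosome 2 (150612471 to 150657494, plus). Chromosome 8, which the study left out because karyotyping showed a possible duplication in all its clones, was kept here so that Ppp1r3b could be read. The 5′ ends of Pgm2 and Gys1 overlap a gene on the other strand (Itgb3bp and Ruvbl2), and strand use in counting is not given in the sources used here, so reads there could belong to either gene.

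ESC libraries of WT-H3.3 held 8245552 to 16083610 counts, and the others from 6590661 to 11949871 in H3.3K27M, from 68378 to 21161392 in H3.3K27L and from 1247934 to 8724336 with GSK343. RA libraries held 2239137 to 22269533 counts and OPC libraries 7499258 to 12387113. The H3.3K27L library of 72 h replicate 2 was the one of 68378 counts, and its 9 values rest on 0 to 5 reads each. Levels are counts per 1000000 (CPM) after TMM scaling within the table of each state. Levels per kb of exon, marker levels, those of the PP1 catalytic subunit and Phkg2 genes and comparisons between states are on a TMM scale common to all 42 libraries.

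Summed CPM of 6 liver and muscle markers were 4.58 to 13.99 in WT-H3.3 ESCs, so the cell types with the main glycogen stores contributed few reads there. Per kilobase of exon, Pygb stood highest in WT-H3.3 ESCs at a mean of 21.3 CPM per kb (18.9 to 25.9, n = 8). Pgm1 (19.6), Ugp2 (16.2) and Gys1 (14.1) followed, and the ranges of these 4 genes overlapped from each to the next. Pgm2, the phosphoglucomutase whose human counterpart carries most of this activity, was separate below them at 6.52 (4.12 to 9.45). The low genes were Ppp1r3b (1.64), Gbe1 (0.855), Ppp1r3c (0.297) and Pygl (0.219), of which Ppp1r3b overlapped Gbe1 in range and Ppp1r3c overlapped Pygl. Of the 2 phosphorylase genes in the set Pygb thus stood higher, and of the 2 targeting subunit genes Ppp1r3b. If these libraries read only 3′ ends, a level per kb understates long transcripts.

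H3.3K27M against WT-H3.3 in ESCs is the contrast that chose the genes. At 24 and 72 h, every H3.3K27M library lay above every WT-H3.3 library in 5 of the 9 genes, and 1.59% of the 14819 genes tested did so. Over all Dox times 0 of the 9 did, against 0.0135% of all genes. For orientation, edgeR's quasi-likelihood test called 0.0135% of all genes over all times and 0% at 24 and 72 h. That model, which also gave the SE below, had no term for replicate number. With a replicate block, 33 genes passed over all times and 2 at 24 and 72 h. The median log2 fold change of the 9 genes at 24 and 72 h was 0.36 and that of all genes 0.00.

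Pgm1, of the phosphoglucomutase family, gave 51.0 and 50.6 CPM at 24 h and 41.6 and 46.5 at 72 h in WT-H3.3 ESCs. In H3.3K27M ESCs it gave 61.3 and 69.6, then 53.0 and 59.98. All 4 H3.3K27M values were the higher ones, by 0.36 ± 0.13 on the log2 scale (SE). Pgm2 gave 12.1, 18.9, 16.3 and 19.2 CPM in WT-H3.3 and 22.0, 61.2, 33.4 and 37.8 in H3.3K27M cells, in the same order of libraries (log2 fold change 1.22 ± 0.32). These groups did not overlap either, and the 24 h replicate 2 library of H3.3K27M stood far above the other 3 (0.76 without it). Gys1, the synthase itself, gave 67.8, 78.8, 57.5 and 63.1 CPM against 85.6, 78.4, 73.6 and 79.3, which overlapped (0.25 ± 0.17). Ugp2 (log2 fold change −0.03 ± 0.17) and Gbe1 (0.04 ± 0.23) had overlapping groups too.

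The targeting subunit Ppp1r3b gave 4.84, 7.35, 5.15 and 7.69 CPM in WT-H3.3 and 10.5, 18.9, 13.6 and 11.1 in H3.3K27M ESCs, without overlap (1.11 ± 0.29). The other 742 chromosome 8 genes tested had a median log2 fold change of −0.01 in this contrast. Ppp1r3c, the other subunit, was read by only 3 to 24 reads a library and gave 1.15, 0.356, 0.451 and 1.73 CPM against 2.34, 2.13, 2.04 and 3.81 (1.501 ± 0.45). Its groups did not overlap, and leaving out 1 WT-H3.3 library moved the log2 value as far as 2.09.

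Pygl gave 0.576, 0.237, 0.837 and 0.605 CPM in WT-H3.3 and 1.89, 7.83, 1.46 and 1.27 in H3.3K27M ESCs (2.21 ± 0.63). It had the largest fold change of the 9 genes at the lowest WT-H3.3 level, on 2 to 13 reads in WT-H3.3 libraries and 8 to 66 in H3.3K27M libraries, and was 1.53 without the 24 h replicate 2 library. Pygb, the phosphorylase most expressed there, showed 90.4 to 107 CPM in WT-H3.3 and 74.3 to 109 in H3.3K27M cells, which overlapped (−0.03 ± 0.13). At 4 and 8 h, Pygl was also high in replicate 2 of H3.3K27M (4.78 and 7.18 CPM) and not in replicate 1 (1.14 and 1.08), and Pgm2 stood at 56.7 and 70.7 against 20.2 and 28.8. The height of these genes thus differed by replicate number within the line. Averaged over the 4 Dox times, the log2 difference from the WT-H3.3 library of the same number was 0.68 in replicate 1 and 1.34 in replicate 2 for Pgm2, and 0.72 and 1.91 for Pygl.

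**Figure D1:**
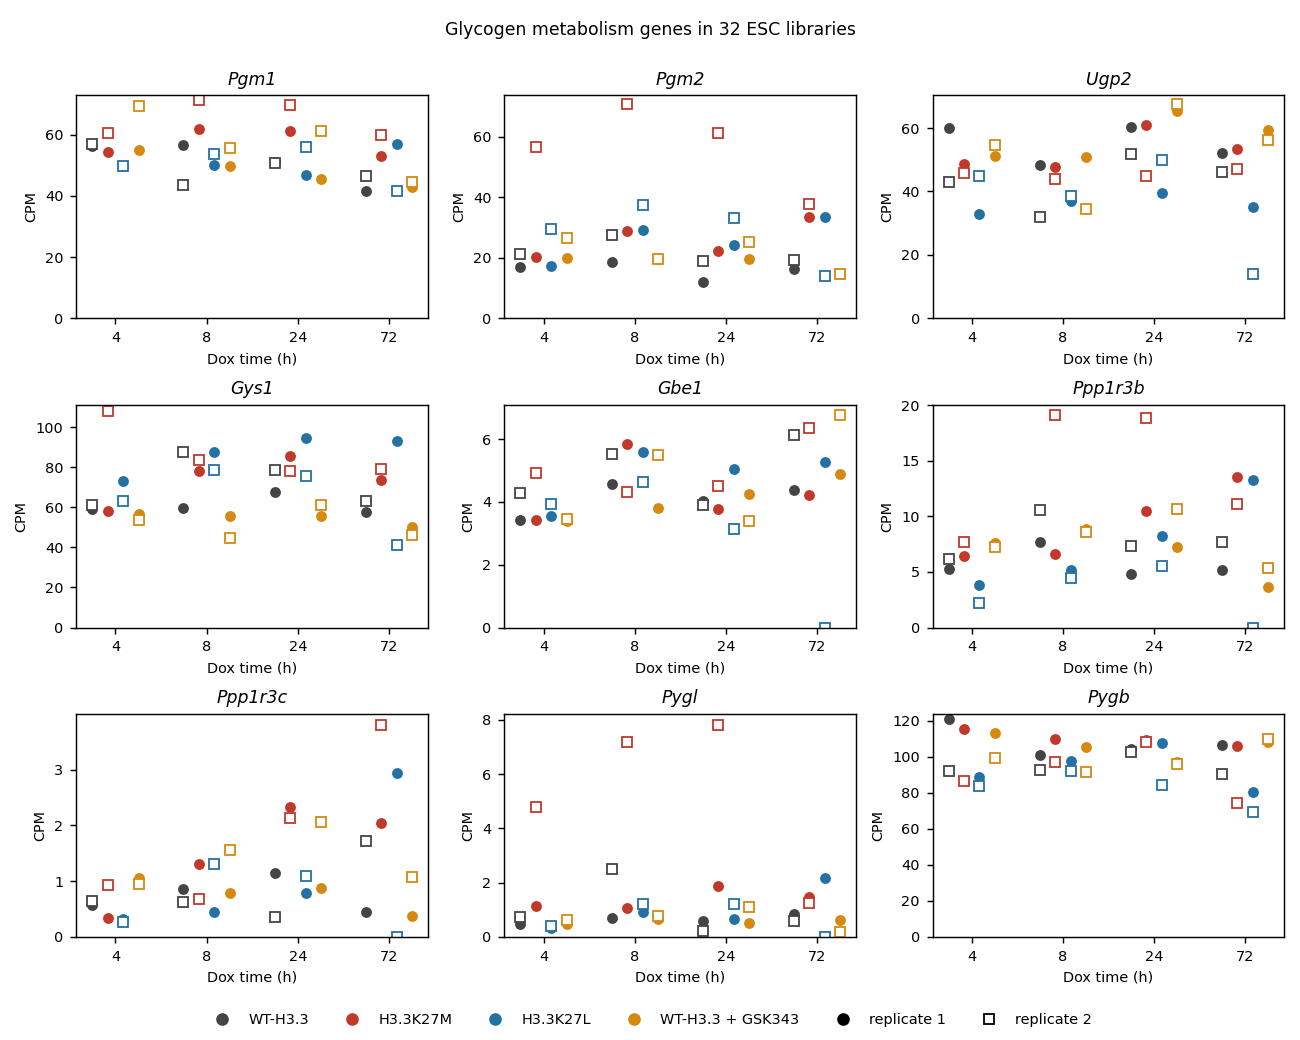
CPM of the 9 genes in the 32 ESC libraries by hours of Dox, on an axis from 0; colour gives the line or treatment, filled circles are replicate 1 and open squares replicate 2. The H3.3K27M squares of Pgm2, Ppp1r3b and Pygl stand apart at 24 h (61.2, 18.9 and 7.83 CPM), and the H3.3K27L square at 72 h is the library of 68378 counts.

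The promoters of 4 of these 5 genes are shown because the genes moved together in the contrast and Ppp1r3b had no entry in the promoter table. Each runs from 250 bases before to 50 bases after the transcription start on the gene's strand, in RefSeq sequence of GRCm38.p6, which is not the build of the counts. Capitals mark ACGTG or GCGTG on either strand (CACGT or CACGC when read on the printed one), the core letters of the element bound by hypoxia-inducible factors. Overlapping matches run together in capitals.
Pgm1, chr5:64092689-64092988, plus strand, listed by RefSeq as Pgm2: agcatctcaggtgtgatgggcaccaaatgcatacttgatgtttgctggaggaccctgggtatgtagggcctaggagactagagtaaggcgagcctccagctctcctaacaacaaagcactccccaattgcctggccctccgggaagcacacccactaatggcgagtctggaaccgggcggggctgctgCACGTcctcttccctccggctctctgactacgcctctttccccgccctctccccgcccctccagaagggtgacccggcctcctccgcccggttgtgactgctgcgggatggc
Pgm2, chr4:99929201-99929500, plus strand, listed by RefSeq as Pgm1: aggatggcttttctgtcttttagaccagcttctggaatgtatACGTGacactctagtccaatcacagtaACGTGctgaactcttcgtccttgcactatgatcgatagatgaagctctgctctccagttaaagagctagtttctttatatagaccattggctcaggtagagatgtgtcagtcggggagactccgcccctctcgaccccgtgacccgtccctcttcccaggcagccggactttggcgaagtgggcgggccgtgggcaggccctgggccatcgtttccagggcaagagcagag
Ppp1r3c, chr19:36736555-36736854, minus strand: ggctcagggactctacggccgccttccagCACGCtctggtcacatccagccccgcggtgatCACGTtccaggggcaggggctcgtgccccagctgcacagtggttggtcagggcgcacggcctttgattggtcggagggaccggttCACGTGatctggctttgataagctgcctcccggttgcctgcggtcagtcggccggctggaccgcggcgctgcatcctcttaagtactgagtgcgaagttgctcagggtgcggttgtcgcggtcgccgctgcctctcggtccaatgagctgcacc
Pygl, chr12:70227634-70227933, minus strand: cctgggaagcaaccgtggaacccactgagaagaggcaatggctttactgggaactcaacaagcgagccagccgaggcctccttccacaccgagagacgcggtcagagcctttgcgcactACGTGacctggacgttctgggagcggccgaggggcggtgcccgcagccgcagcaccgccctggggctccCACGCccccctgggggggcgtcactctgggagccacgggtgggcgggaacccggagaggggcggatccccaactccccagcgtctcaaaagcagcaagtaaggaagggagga

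The 4 promoters held 1, 2, 4 and 2 matches in this order. Matches were not particular to these genes: 1 of the 2 Ugp2 promoters held 6 and that of Pygb 2, and the groups of both genes overlapped in the contrast. Of the 9 promoters listed for 8 of the genes, 6 held a match, as did 43.8% of all 32851 promoters in the table, and 20.6% held 2 or more. A match of 5 letters is a description of the sequence and no binding site. The letters were searched because genes of a hypoxia list stood higher in the same contrast. In 7 of the 19 list genes tested, every H3.3K27M library of 24 and 72 h lay above every WT-H3.3 library, against 1.59% of all genes. The list genes had a median log2 fold change of 0.54. In ESCs at 24 and 72 h their median was 0.39 with H3.3K27L (−0.03 over all Dox times) and 0.06 with GSK343. In RA-treated cells it was −0.14 with H3.3K27M and 0.50 with H3.3K27L. There 4 of 18 list genes were higher with H3.3K27L and 0 lower by edgeR's adjusted p, where 6.77% of all genes passed. The list was chosen with earlier results of these data known, and is no independent support. It holds Vegfa, Ddit4 and Bhlhe40, which the study reports as higher in H3.3K27M ESCs. The part of the list genes in the values of the 9 genes was not tested.

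Over 31 ESC libraries of at least 1000000 counts, the genes with levels most like Pgm1 were Ascc1 (Pearson r = 0.86 on log2 CPM), Tpi1 (0.84), Psph (0.83), Fam162a (0.79) and Cryz (0.79). Those most like Ppp1r3b were Ddit4 (0.81), Tmem191c (0.79), Pkp2 (0.79), Vegfa (0.78) and Sirpa (0.78). Ddit4 and Vegfa are in the hypoxia list. Among the 9 genes, Pgm2 and Pygl went together most closely (0.84), and Pgm1 and Pgm2 less so (0.63). These coefficients are over libraries that share line, time and replicate number, and the H3.3K27M libraries that chose the genes are among them.

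H3.3K27L asks whether another substitution at the same residue goes with these levels. Of the 9 genes, 0 passed edgeR's quasi-likelihood test (adjusted p under 0.05) over all Dox times, where 8.77% of all genes did, and 0 at 24 and 72 h, where 0.715% did. DESeq2 passed 0 in each span. At an unadjusted p under 0.05 there were 3 over all times and 2 at 24 and 72 h. The 9 genes had a median log2 fold change of 0.05 over all times and 0.35 at 24 and 72 h, against 0.00 and −0.01 for all genes. Pgm2 ran from 13.82 to 37.3 CPM (median 29.4) in the 8 H3.3K27L libraries and from 12.1 to 27.6 (median 18.7) in WT-H3.3, which overlapped. Its log2 fold change was 0.63 ± 0.24 (edgeR's quasi-likelihood test, adjusted p = 0.0975), and it passed without the filter on low counts (0.63, adjusted p = 0.0021) and with only the compared libraries in the model (0.62, adjusted p = 0.0481). Its value at 24 and 72 h was 0.86 ± 0.35 (adjusted p = 0.328 by edgeR), and it passed there too without the filter (0.87, adjusted p = 0.0179). Ugp2 ran from 13.82 to 49.8 CPM (median 37.7) against 31.9 to 60.3 (median 50.2), also with overlap (−0.35 ± 0.12, adjusted p = 0.0845). Without WT-H3.3 8 h replicate 2 it passed, at −0.42 (adjusted p = 0.0275). Gys1, the other gene under an unadjusted 0.05 over all times, gave 0.27 ± 0.12 (unadjusted p = 0.0405 and adjusted p = 0.186 by edgeR's test). The log2 fold changes over all times were 0.05 for Pgm1, −0.01 for Gbe1, 0.21 for Ppp1r3c and −0.19 for Pygb.

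Ppp1r3b, which stood higher in H3.3K27M ESCs, gave 3.87, 2.23, 5.18 and 4.47 CPM in the H3.3K27L libraries of 4 and 8 h and 8.21, 5.54, 13.3 and 0 in those of 24 and 72 h. The value at 0 is the library of 68378 counts. Over all times its log2 fold change was −0.17 ± 0.22 (adjusted p = 0.663 by edgeR's quasi-likelihood test). The other 742 genes of chromosome 8 had a median of −0.21 in this comparison, and their part in the Ppp1r3b value was not tested. Pygl, at 0 to 2.17 CPM, gave 0.33 ± 0.50 (adjusted p = 0.723). At 24 and 72 h Ppp1r3b gave 0.57 ± 0.32 and Pygl 1.35 ± 0.71, neither past the test. The H3.3K27L and H3.3K27M values share the WT-H3.3 libraries.

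GSK343 on WT-H3.3 ESCs asks what inhibition of PRC2 does to the same genes. None of the 9 passed edgeR's quasi-likelihood test over all Dox times or at 24 and 72 h, and 0% of all genes passed in either span. The count at an unadjusted p under 0.05 was 1 over all times and 0 at 24 and 72 h, and DESeq2 passed 0 in each. Gys1 was the 1 gene, at 44.7 to 61.1 CPM (median 54.5) with GSK343 and 57.5 to 87.6 (median 62.2) without (log2 fold change −0.33 ± 0.12, unadjusted p = 0.012 and adjusted p = 0.981 by edgeR's quasi-likelihood test). The other 8 genes had log2 fold changes from −0.29 (Pygl) to 0.36 (Ppp1r3c). In WT-H3.3 ESCs, 24 and 72 h of Dox against 4 and 8 h passed the same test in 0 of the 9 genes and in 0.108% of all genes, with 0 of the 9 at an unadjusted p under 0.05 and 0 by DESeq2. Pygl had the largest log2 value of the 9 there (−0.86 ± 0.65), and its 8 h replicate 2 library stood at 2.51 CPM against 0.237 to 0.837 in the other 7.

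Of the other 30 genes of glycogen metabolism, 23 were tested in ESCs. With H3.3K27L over all times, 2 were lower by edgeR's quasi-likelihood test and 0 higher, a share near the 8.77% of all genes that passed. These were Gyg, which codes for glycogenin, the primer of new glycogen particles (−0.95, adjusted p = 0.000133), and Nhlrc1, which codes for malin, a ubiquitin ligase of glycogen-bound proteins (−1.13, adjusted p = 0.00555). At 24 and 72 h only Gyg passed (−0.91, adjusted p = 0.0413). With GSK343, and between Dox times in WT-H3.3, edgeR's test and its adjusted p gave 0 of the 23.

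In RA-treated cells, summed CPM of 7 ESC markers were 92.5 to 334 (2498 to 5550 in ESCs). Those of 7 neural progenitor markers were 309 to 854 (35.1 to 117 in ESCs). The extraembryonic endoderm markers Gata4, Gata6, Sox17, Sox7 and Dab2 were present, and Afp was near 0, at 0.25 to 2.06 CPM. Summed CPM of these 6 markers were 441 to 700 in WT-H3.3, 315 to 446 in H3.3K27M and 1309 to 1450 in H3.3K27L libraries. The 6 liver and muscle markers summed to 68.05 to 117.5, 70.4 to 93.5 and 33.2 to 46.8 CPM in these lines, above their level in WT-H3.3 ESCs. The lines thus differed in marker levels, and the part of this in any difference between lines or states was not tested. In bulk RNA, fewer cells of a type and less RNA per cell cannot be told apart. Of the 9 genes 8 had enough reads for the test, and Ppp1r3c, with 2 to 19 reads a library, did not.

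H3.3K27M against WT-H3.3 in RA-treated cells is independent of the libraries that chose the genes. The count past edgeR's quasi-likelihood test was 0 of 8, against 0.0154% of all genes, with 2 at an unadjusted p under 0.05 and 0 by DESeq2. Those 2 were lower. Ppp1r3b gave 9.60 CPM at 24 h and 13.7 at 72 h in WT-H3.3 and 5.96 and 6.88 in H3.3K27M (log2 fold change −0.83 ± 0.33, adjusted p = 0.742 by edgeR's test), with both H3.3K27M values the lower ones. Pygl gave 5.43 and 3.92 against 1.55 and 3.78 CPM (−1.22 ± 0.52, adjusted p = 0.790). The values of Pgm1 were 28.6 and 11.8 in WT-H3.3 and 28.5 and 13.1 in H3.3K27M (0.04 ± 0.23). Gys1 gave −0.34 ± 0.16 (unadjusted p = 0.0522, adjusted p = 0.804 by edgeR's test), and the other log2 fold changes were −0.16 for Pgm2, −0.28 for Ugp2, 0.05 for Gbe1 and −0.15 for Pygb. The excess seen in H3.3K27M ESCs at 24 and 72 h was thus not seen in these RA libraries, though the difference between the states was not tested. The median log2 fold change was −0.22 for the 8 genes and 0.03 for all genes.

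H3.3K27L against WT-H3.3 in RA-treated cells passed edgeR's test in 0 of 8, against 6.77% of all genes, with 3 at an unadjusted p under 0.05 and 0 by DESeq2. Pgm2 was highest in H3.3K27L at each time, with 49.2 and 92.0 CPM against 35.9 and 51.9 (log2 fold change 0.63 ± 0.18, adjusted p = 0.0559 by edgeR's quasi-likelihood test). It passed without the WT-H3.3 24 h library, at 0.81 (adjusted p = 0.0065). Pgm1 was also higher at each time, with 35.9 and 22.1 CPM against 28.6 and 11.8 (0.53 ± 0.23, adjusted p = 0.201), and Pygl lower, with 2.04 and 1.70 against 5.43 and 3.92 (−1.34 ± 0.56, adjusted p = 0.189). The log2 fold changes of the others were −0.26 for Ugp2, −0.03 for Gys1, −0.12 for Gbe1, −0.24 for Ppp1r3b and −0.08 for Pygb. The 8 genes had a median of −0.10 and all genes 0.03. Of the other glycogen genes 22 were tested: 0 passed with H3.3K27M (adjusted p, edgeR's test), and 2 were higher with H3.3K27L, the lysosomal glucosidase gene Gaa (0.70, adjusted p = 0.0249) and the glucose 6-phosphatase gene G6pc3 (0.89, adjusted p = 0.0393).

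**Figure D2:**
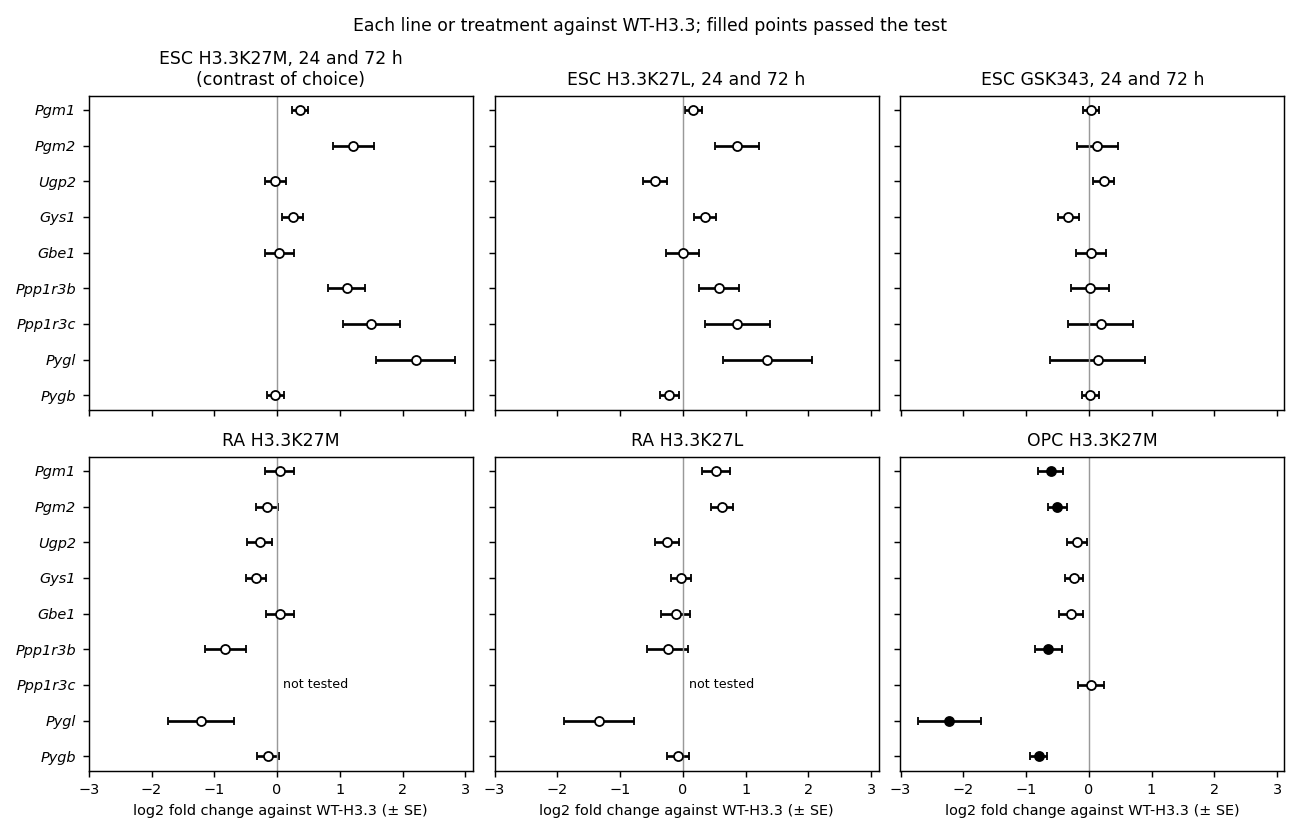
Log2 fold change against WT-H3.3 (x axis, with SE bars) of the 9 genes (y axis) for each line or treatment and state; filled points passed edgeR's quasi-likelihood test, and the first panel is the contrast that chose the genes, drawn without a test. Filled points appear only in the OPC panel, where Pgm1, Pgm2, Ppp1r3b, Pygl and Pygb lie between −2.22 and −0.50.

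Between 24 and 72 h of Dox in RA-treated cells, 69.4% of all genes passed (33.5% higher and 36% lower at 72 h), and 5 of the 8 did. Pgm1 fell in every line, from 28.6, 28.5 and 35.9 CPM at 24 h to 11.8, 13.1 and 22.1 at 72 h (log2 fold change −1.001 ± 0.19, adjusted p = 0.00054 by edgeR's quasi-likelihood test). Pgm2 rose in every line, from 35.9, 29.2 and 49.2 CPM to 51.9, 51.9 and 92.0 (0.77 ± 0.14, adjusted p = 0.000494). Pgm1 and Pgm2 thus moved in opposite directions. Ugp2 fell from 61.8, 47.7 and 57.0 CPM to 36.7, 33.4 and 26.1 (−0.79 ± 0.16, adjusted p = 0.000947), and Gys1 rose from 54.5, 43.4 and 53.7 to 97.4, 76.0 and 95.0 (0.82 ± 0.13, adjusted p = 0.000134). Neither pair of groups overlapped. Pygb fell from 65.1 to 79.9 CPM at 24 h to 55.6 to 59.2 at 72 h, without overlap (−0.34 ± 0.14, adjusted p = 0.0462), but was lost when any 1 of the 6 libraries was left out, with DESeq2 (−0.32, adjusted p = 0.156) and with RLE scaling (−0.31, adjusted p = 0.0642). Gbe1, Ppp1r3b and Pygl did not pass. The median of the 8 genes was 0.17 and that of all genes −0.07.

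The RA libraries of 24 h and 72 h also differed in another measure. Genes whose 3′ end overlaps that of a gene on the other strand had a median log2 change of −0.71 from 24 to 72 h (1383 genes), and other annotated genes one of −0.03. This split was near 0 in every comparison between lines within a state. It was −1.01 against −0.05 for WT-H3.3 OPCs against ESCs and −0.56 against −0.11 for RA against ESCs. The methods name a 3′ and a whole-transcript library kit without assigning libraries to them. The study describes the RA times of 24 and 72 h as similar and pooled them. It added Dox 24 h after RA began, so length of RA treatment may differ between these times too. Library type, Dox time and length of RA treatment, state and culture medium therefore cannot be told apart. None of the 9 genes has such an overlap of 3′ ends.

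Genes of PP1 and phosphorylase kinase also separated these libraries. Ppp1ca, Ppp1cb and Phkg2 have an overlap of 3′ ends and Ppp1cc does not, and the part of the overlap in their levels was not tested. In the ESC library of 68378 counts, Ppp1ca rests on 12 reads (170 CPM) and Ppp1cc on 4 (56.8 CPM). Ppp1ca, the gene of the alpha catalytic subunit of PP1, stood at 223.5 to 547 CPM in the other ESC libraries and 230 to 262 in RA at 24 h. It stood at 30.7 to 39.2 in RA at 72 h and 10.7 to 15.3 in OPCs. Ppp1cc, the gamma subunit, stood at 127 to 198 CPM in these other ESC libraries and lower, at 81.3 to 90.0, in RA at 24 h. It stood at 2.35 to 6.05 in RA at 72 h and 1.39 to 2.54 in OPCs. Phkg2, a catalytic subunit of phosphorylase kinase, was at 14.3 to 23.3 CPM in RA at 24 h, 0.288 to 1.18 in RA at 72 h and 0 to 0.0996 in OPCs. Ppp1cb, the beta subunit, varied less, from 330 to 510 CPM in ESCs to 131 to 178 in OPCs. Levels of Ppp1ca, Ppp1cb, Ppp1cc and Phkg2 were lower in RA at 72 h than at 24 h in all 3 lines.

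**Figure D3:**
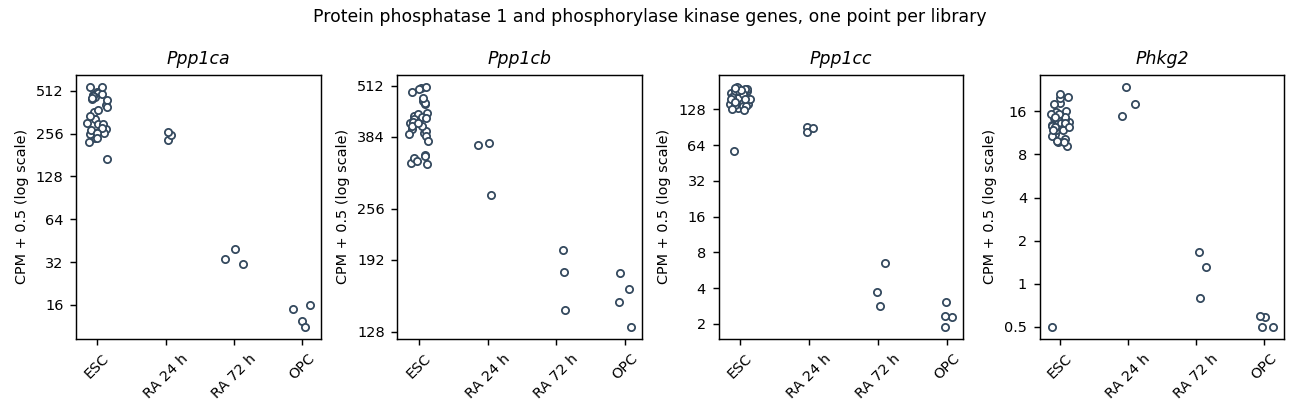
CPM + 0.5 on a log axis for 3 PP1 catalytic subunit genes and the phosphorylase kinase gene Phkg2, on the scale common to all libraries. There is 1 point per library, in ESCs, RA at 24 h, RA at 72 h and OPCs. The RA libraries of 24 h lie nearer the ESC libraries and those of 72 h nearer the OPC libraries, as for Ppp1cc (81.3 to 90.0 against 2.35 to 6.05 CPM). The Ppp1cc values of RA at 24 h lie below those of all ESC libraries but the one of 68378 counts.

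Among the 22 other glycogen genes tested in RA-treated cells, 2 were higher and 13 lower at 72 h by edgeR's adjusted p, where 69.4% of all genes passed (33.5% higher and 36% lower). The lowest adjusted p-values belonged to Ppp1ca (−2.61, adjusted p = 1.82e-08), Ppp1cc (−4.22, adjusted p = 2.47e-08), Gaa (−1.74, adjusted p = 3.68e-07) and Phkg2 (−4.37, adjusted p = 1.95e-06).

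In OPCs, 5 of the 9 genes were lower with H3.3K27M and 0 higher, where 51.5% of all genes passed (25% higher and 26.5% lower). The median log2 fold change of the 9 genes was −0.50 and that of all genes 0.00. These libraries took no part in the choice of the genes. Pgm1 gave 17.1 and 15.7 CPM in WT-H3.3 and 10.2 and 11.3 in H3.3K27M OPCs (−0.60 ± 0.20, adjusted p = 0.0265 by edgeR's quasi-likelihood test). Pgm2 gave 61.6 and 63.4 against 39.5 and 48.6 CPM (−0.50 ± 0.15, adjusted p = 0.0164). Both Pgm1 and Pgm2 were thus lower in each H3.3K27M library. Ppp1r3b gave 14.3 and 13.1 against 8.22 and 9.33 CPM (−0.64 ± 0.21, adjusted p = 0.0274), while the other 687 chromosome 8 genes had a median of −0.06.

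Both phosphorylases of the set were lower as well. Pygb gave 100 and 108 CPM in WT-H3.3 and 55.8 and 64.0 in H3.3K27M OPCs (−0.80 ± 0.14, adjusted p = 0.000664 by edgeR's quasi-likelihood test). Pygl gave 4.94 and 2.79 CPM against 0.53 and 1.10, the latter on 4 and 9 reads (−2.22 ± 0.50, adjusted p = 0.00364). Pygm, the muscle phosphorylase and no member of the set, went the other way (4.04, adjusted p = 2.94e-05). The 4 genes that did not pass were Ugp2 (−0.19 ± 0.16), Gys1 (−0.24 ± 0.14), Gbe1 (−0.28 ± 0.19) and Ppp1r3c (0.04 ± 0.20), and Ppp1r3c gave 74.5 and 84.6 CPM against 61.3 and 102. With 2 libraries a group these calls were fragile: DESeq2 passed 3 of the 9, and leaving out the WT-H3.3 24 h library or the H3.3K27M 24 h library left 2, of which only Pygb passed in all these cases.

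The 2 OPC lines also differed in marker levels. Summed CPM of 6 fibroblast markers were 541 to 585 in WT-H3.3 and 23.3 to 26.7 in H3.3K27M OPCs, with 1 higher and 5 lower by edgeR's test. Col1a1 was at 157 to 162 and 2.38 to 4.37, and Thy1 at 5.57 to 7.77 and 12.8 to 15.3. The 5 neuron markers summed to 160.5 to 186 and 37.95 to 52.4, with 1 higher and 3 lower. The 6 astrocyte markers summed to 1117 to 1133 and 1309 to 1775, but 3 of the 6 were higher and 3 lower by edgeR's test. Slc1a3 was at 730 to 737 CPM in WT-H3.3 and 858 to 1178 in H3.3K27M, and Gfap at 23.2 to 32.9 and 0 to 0.282. The 6 OPC markers summed to 501 to 536 CPM in WT-H3.3 and 1712 to 1913 in H3.3K27M, with 4 of them higher and 2 lower by edgeR's test. Olig2, a transcription factor of the oligodendrocyte lineage, was at 268 to 325 CPM in WT-H3.3 and 978 to 1017 in H3.3K27M, and Olig1 at 149 to 160 and 583 to 675. Cspg4 was at up to 10.05 CPM in WT-H3.3 and 73.1 to 98.9 in H3.3K27M, and Nkx2-2 at 36.4 to 37.0 and 77.2 to 120. Pdgfra, the receptor that defines OPCs, was at 15.3 to 22.6 and 0.564 to 0.793, and Sox10 at 1.89 to 3.29 and 0.141 to 0.529, so these 2 of the 6 were near 0 in the H3.3K27M libraries. Of the hypoxia list, 7 of 17 genes were lower and 2 higher (median −0.49), where 51.5% of all genes passed (26.5% lower and 25% higher). The part of these differences in the values of the glycogen genes was not tested.

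Of the other glycogen genes 21 were tested in OPCs, of which 7 were higher and 3 lower with H3.3K27M, where 51.5% of all genes passed (25% higher and 26.5% lower). Pygm was the first by adjusted p, followed by Hk1, a hexokinase (−0.999, adjusted p = 0.000238 by edgeR's quasi-likelihood test), Slc37a4, the glucose 6-phosphate transporter (1.01, adjusted p = 0.0016) and Nhlrc1 (−1.39, adjusted p = 0.00174). The median of this list was 0.43, opposite in sign to that of the 9 genes.

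ESCs were grown with an inhibitor of GSK3, the kinase that phosphorylates and inactivates glycogen synthase, and RA-treated cells without it, so state and medium changed together. Levels between states were compared in WT-H3.3 cells at 24 and 72 h on a scale common to the 42 libraries. Other genes set that scale in part: the median log2 change of all genes was −0.16 for RA against ESCs and −0.21 for OPCs against ESCs, and 0.13 and 0.15 with the median-ratio scaling of DESeq2. RA against ESCs passed in 5 of the 9 genes (3 higher and 2 lower), where 56.9% of all genes passed (25% higher and 31.9% lower). OPCs against ESCs passed in 7 (6 higher and 1 lower), where 78.3% did (36.2% higher and 42.1% lower). OPCs against RA-treated cells passed in 3, all higher, where 50.5% did (24.5% higher and 26% lower).

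Ppp1r3c showed the widest span of the set. It gave 1.15, 0.358, 0.452 and 1.74 CPM in ESCs, 1.27 and 0.808 in RA-treated cells and 80.1 and 87.7 in OPCs. Its OPC level did not overlap the others (OPCs against ESCs 6.54 ± 0.40, adjusted p = 1.82e-14; OPCs against RA 6.10 ± 0.58, adjusted p = 1.24e-09, edgeR's quasi-likelihood test). Per kb of exon it was second of the 9 genes in WT-H3.3 OPCs (30.9 CPM per kb, after Gys1 at 45.5), while in ESCs it was eighth. Ppp1r3b rose less, from 4.82 to 7.74 CPM in ESCs to 15.4 and 13.5 in OPCs (1.21 ± 0.32, adjusted p = 0.00113), and did not pass when the 24 h OPC library of WT-H3.3 was left out (1.10, adjusted p = 0.0694). Markers of other cell types moved with these levels: in WT-H3.3 cells, 6 astrocyte markers summed to 1117 to 1133 CPM in OPC libraries and 42.3 to 50.1 in ESCs, and 6 fibroblast markers to 541 to 585 and 2.20 to 10.8. Their part in the values of the 9 genes was not tested.

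Gys1 rose in OPCs too, to 247 and 189 CPM from 57.6 to 79.3 in ESCs (1.70 ± 0.18, adjusted p = 1.57e-09 by edgeR's test), and its RA values of 54.5 and 80.4 lay beside those of ESCs (−0.01 ± 0.19). Gbe1 was higher in both differentiated states, with 17.2 and 15.8 CPM in RA, 22.4 and 21.9 in OPCs and 3.94 to 6.18 in ESCs (1.85 ± 0.25 and 2.27 ± 0.23, adjusted p = 3.99e-07 and 7.95e-10). Pgm1 and Pgm2 again parted. Pgm1 fell from 41.7 to 51.0 CPM in ESCs to 28.6 and 9.69 in RA and 18.3 and 16.2 in OPCs (−1.46 ± 0.19 and −1.46 ± 0.18, adjusted p = 3.33e-07 and 3.35e-08). Pgm2 rose from 12.04 to 19.3 CPM to 35.8 and 42.8 in RA and 66.2 and 65.7 in OPCs (1.25 ± 0.36 and 1.99 ± 0.34, adjusted p = 0.00398 and 5.62e-06), the first of which was lost when the 24 h RA library of WT-H3.3 was left out (1.01, adjusted p = 0.143). Ugp2 passed in none of the 3 comparisons with RA libraries of both times.

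Pygl rose from 0.239 to 0.839 CPM in ESCs to 5.43 and 3.23 in RA and 5.31 and 2.89 in OPCs (3.01 ± 0.71 and 2.85 ± 0.64, adjusted p = 0.000778 and 0.000245 by edgeR's test). Each call rested on 1 library: the first gave 2.30 (adjusted p = 0.129) without the 24 h RA library of WT-H3.3, and the second 1.92 (adjusted p = 0.153) without its 24 h OPC library. Pygb was lower in RA, at 79.8 and 47.2 CPM against 91.0 to 107 in ESCs (−0.71 ± 0.17, adjusted p = 0.00106), and stood at 108 and 112 in OPCs (0.12 ± 0.16 against ESCs).

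Since Ppp1ca, Ppp1cc and Phkg2 stood nearer their ESC levels in the RA libraries of 24 h and nearer their OPC levels in those of 72 h, the comparisons were repeated with the RA libraries of 1 Dox time. With those of 24 h, RA against ESCs passed in 3 of the 9 genes (40.9% of all genes): Pgm1 (−0.76 ± 0.23, adjusted p = 0.0116 by edgeR's test), Gbe1 (1.88 ± 0.31, adjusted p = 2.28e-05) and Pygl (3.25 ± 0.81, adjusted p = 0.00229). Pgm2 gave 1.08 (adjusted p = 0.0623) and Pygb −0.37 (adjusted p = 0.205). With those of 72 h, RA against ESCs passed in 5 genes (49.5% of all genes): Pgm1 (−2.30), Pgm2 (1.35), Gbe1 (1.77), Pygb (−1.11) and also Ugp2 (−0.81 ± 0.31, adjusted p = 0.0312 by edgeR's test). Pygl gave 2.51 (adjusted p = 0.0552). With those of 72 h, OPCs against RA passed in 4 genes (25.5% of all genes), Gys1 (1.47 ± 0.31, adjusted p = 0.000743), Ppp1r3c (6.72 ± 0.87, adjusted p = 1.73e-06), Pygb (1.26 ± 0.27, adjusted p = 0.000842) and Pgm1. Pgm1 changed direction with the RA time, at 0.88 against RA of 72 h (adjusted p = 0.0331) and −0.69 against RA of 24 h (adjusted p = 0.0183). For OPCs against ESCs, state and library type cannot be told apart.

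**Figure D4:**
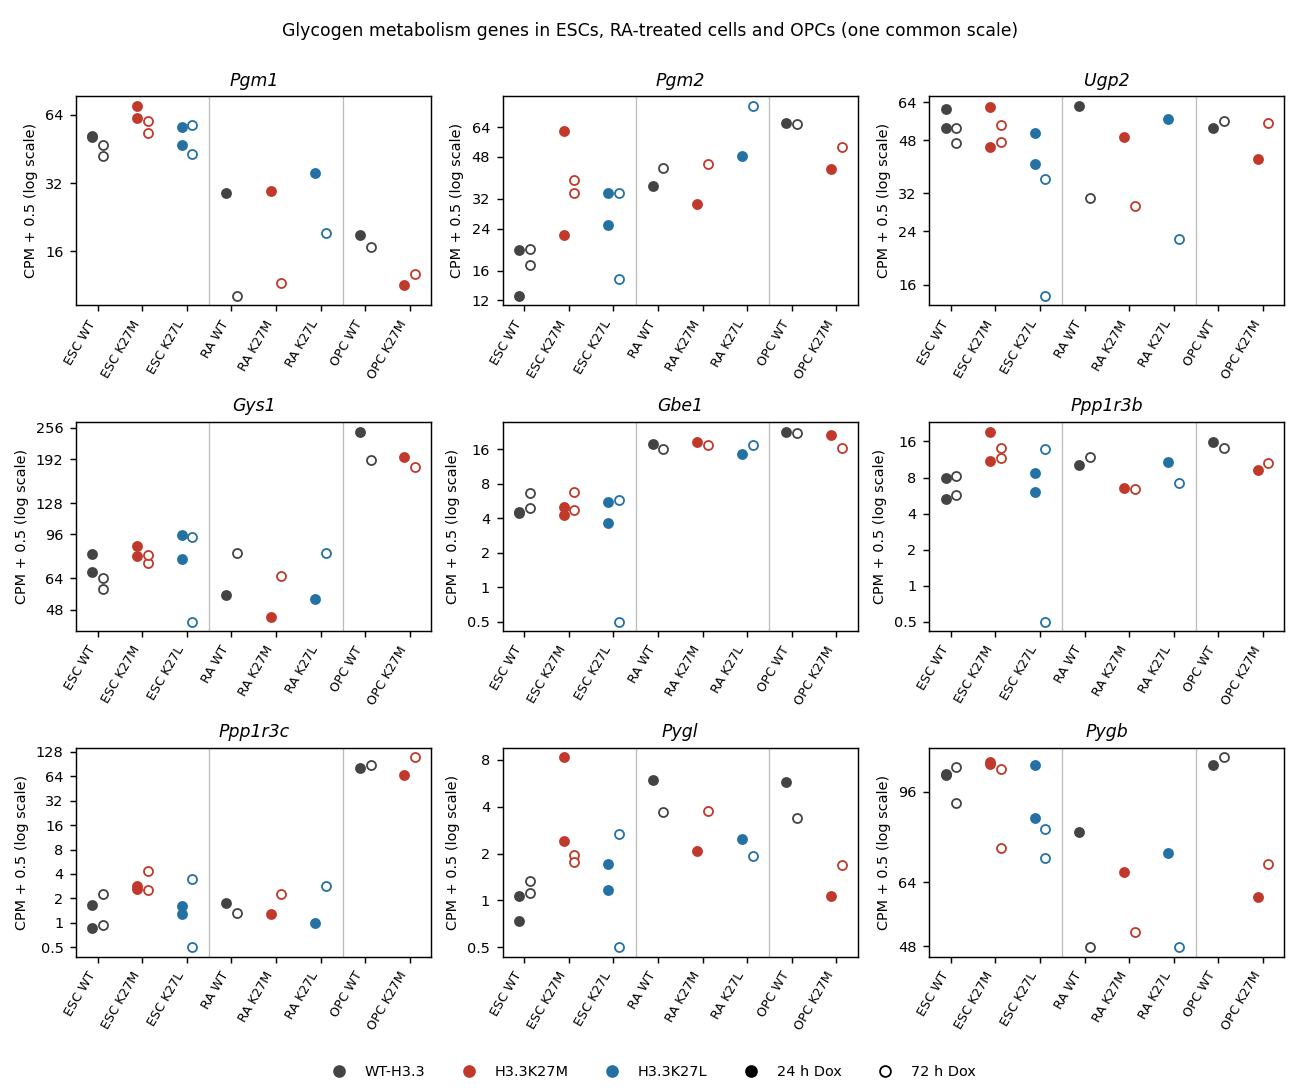
CPM + 0.5 on a log axis for the 9 genes in the ESC, RA and OPC libraries of 24 h (filled) and 72 h (open) of Dox, on the scale common to all libraries, by line; axes differ between panels. Ppp1r3c and Gys1 stand highest in OPCs (80.1 and 247 CPM in the WT-H3.3 library of 24 h), and Pgm1 is lower in RA-treated cells and OPCs than in ESCs.

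Of the 26 other glycogen genes tested between states, 6 were higher and 9 lower in RA against ESCs, 11 and 10 in OPCs against ESCs, and 4 and 9 in OPCs against RA, by edgeR's adjusted p, where 56.9%, 78.3% and 50.5% of all genes passed. Ppp1cc and Ppp1ca were among the first 4 by adjusted p each time (log2 fold changes of −3.09 and −1.90, −6.61 and −4.58, and −3.52 and −2.68), and library type and state cannot be told apart in these values. In RA against ESCs these were joined by Gyg (1.87, adjusted p = 8.35e-09) and Stbd1, a glycogen-binding protein of the lysosomal route (4.62, adjusted p = 7.36e-06). In OPCs against ESCs they were joined by Phkg2 (−6.89, adjusted p = 1.01e-11) and Hk2, a hexokinase (−3.51, adjusted p = 1.87e-11), and in OPCs against RA by Hk2 (−2.64, adjusted p = 4.29e-08) and Hk1 (2.33, adjusted p = 1.05e-06).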

How the data were processed

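RNA-seq of 42 mouse libraries was analysed, and the 113 ChIP-seq samples were not used here. The authors aligned reads to mm9 with STAR (version 2.7.1) and deposited raw counts per gene, without normalization. The counting tool, the annotation and the library kit of each library are not given in the sources used here. Of the 55471 genes, 32589 matched NCBIM37 by identifier and held 98.2% of counts. Genes of chromosome 8 (5.78% of counts) were kept.

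edgeR 4.0.16 (in R 4.3.3, with TMM and filterByExpr) supplied the quasi-likelihood test of the counts. One model held the 32 ESC libraries, a mean being fitted per group and Dox time, another the 6 RA libraries with terms for line and Dox time, another the 4 OPC libraries with a term for line alone, and another all 42 with Dox time within RA and OPC. Benjamini-Hochberg adjustment ran over all genes of a model, and genes passed at an adjusted p-value under 0.05. Alternatives used DESeq2 1.42.0, its normalization (RLE), no filter, a fold change above 2 or below 0.5, chromosome 8 left out, a replicate block, fewer libraries in the model, RA times pooled and each library left out. Crossed replicate numbers, the RA libraries of 1 Dox time, the alternatives for H3.3K27M against WT-H3.3 in ESCs and the split by overlapping 3′ ends were chosen after seeing the data. The tests were first tried on simulated counts.

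As a check of pairing, the differences between replicates 1 and 2 were correlated between lines over 10233 genes. Between H3.3K27M and WT-H3.3 ESCs it was 0.572 to 0.685 at the 4 Dox times, so the numbers pair these lines. The main ESC model did not use this pairing, which entered only with the replicate block. For H3.3K27L it was −0.531, −0.661, −0.599 and 0.234 at 4, 8, 24 and 72 h and for GSK343 −0.388 to 0.588, and these numbers were not taken as pairs.

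The 9 genes and the lists of other glycogen, hypoxia and marker genes were chosen with earlier results of these data known. The genes to be named were all 9 of the set, and in comparisons between states those that did not pass are in part given by counts. Of the other glycogen genes, up to 4 that passed are named by lowest adjusted p, and for Pgm1 and Ppp1r3b the 5 most correlated genes. Precision at low levels is limited by read number, and p-values measure the spread between these libraries. Python 3.11.15, NumPy 2.4.6, pandas 2.3.3 and Matplotlib 3.10.9 were used.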

Additional observations from a re-analysis of the deposited data

Results flagged for a closer look

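Of 36 gene and group combinations of 8 ESC libraries, 4 had 1 library far from the other 7 by Dixon's test. Chance gives this in about 1 in 20 groups. Pygl stood at 2.51 CPM (40 reads) in WT-H3.3 at 8 h replicate 2, with the other 7 libraries at 0.237 to 0.837. Ppp1r3c stood at 2.94 CPM (19 reads) in H3.3K27L at 72 h replicate 1. In H3.3K27L at 72 h replicate 2, the library of 68378 counts, Ugp2 stood at 13.82 CPM on 1 read, and Gbe1 was at 0 with 0 reads, at a depth too low to detect the level of the other 7.

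For 4 genes every H3.3K27M library of 24 and 72 h lay above every WT-H3.3 library in ESCs and below them in OPCs. The share of all genes that did both was not counted. In ESCs 1.59% of all genes did the first. The share that did the second, with 2 libraries a group, was not counted either. In OPCs 26.5% of all genes passed edgeR's test as lower, which is another measure. The log2 fold changes in ESCs and OPCs were 0.36 and −0.60 for Pgm1, 1.22 and −0.50 for Pgm2, 1.11 and −0.64 for Ppp1r3b, and 2.21 and −2.22 for Pygl. The genes were chosen on the ESC side, and the difference between the states was not tested.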

How the results depend on the processing

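For H3.3K27L in ESCs over all Dox times, 1 gene (Pgm2) passed without the filter on low counts, with only the compared libraries in the model, and with the replicate block, in place of 0. With the block its log2 fold change was 0.69 (adjusted p = 0.0098 by edgeR). At 24 and 72 h it passed without the filter and with the block (0.99, adjusted p = 0.0479), and 1 gene passed in place of 0. Replicate numbers were not taken to pair H3.3K27L with WT-H3.3 libraries, their differences being opposed at 4, 8 and 24 h, and with the numbers crossed 2 genes passed over all times (Pgm2 and Ugp2), with 2721 genes in all. The block changed no other call of the 9 genes. Without the filter, 1 gene (Pgm2) passed for H3.3K27L in RA-treated cells. For H3.3K27M in OPCs, 1 passed when a fold change above 2 or below 0.5 was demanded and 3 passed with DESeq2. For 72 h against 24 h in RA-treated cells, 1 passed with the fold demanded, and Pygb was lost with DESeq2 (−0.32) and RLE (−0.31). For RA against ESCs, 3 passed with only the RA libraries of 24 h. The cause was not tested.

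Leaving out 1 library at a time gave 3 to 5 genes for RA against ESCs, 5 to 7 for OPCs against ESCs, 3 in each case for OPCs against RA, 0 to 1 for H3.3K27L in ESCs over all times, 0 to 1 for H3.3K27L in RA-treated cells, 4 to 5 for 72 h against 24 h and 2 to 5 for H3.3K27M in OPCs. For RA against ESCs, Pgm2 (1.01) and Pygl (2.30) were lost without the WT-H3.3 RA library of 24 h. For 72 h against 24 h of RA, Pygb was lost without any 1 library, and Ppp1r3c was tested and passed (1.84) once WT-H3.3 at 72 h was left out. For OPCs against ESCs, Ppp1r3b (1.10) and Pygl (1.92) were lost without the WT-H3.3 OPC library of 24 h. Without the H3.3K27M OPC library of 24 h, Pgm1 (−0.53), Pgm2 (−0.36) and Ppp1r3b (−0.56) were lost, and without the WT-H3.3 one Pgm1 (−0.54), Ppp1r3b (−0.57) and Pygl (−1.74). The count of genes with every H3.3K27M ESC library above every WT-H3.3 one went from 0 to 1 (Pygl, without WT-H3.3 8 h replicate 2) over all times. At 24 and 72 h it was 4 with RLE (without Pgm1), 4 with chromosome 8 left out and 6 without WT-H3.3 24 h replicate 2 (with Gys1).

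Values near 0 changed sign in genes that did not pass. For RA against ESCs, Ugp2 became 0.0135 with DESeq2 and 0.0144 with RLE, and Gys1 0.29 with each, while Ppp1r3b passed (1.03 and 1.02). For Dox times in WT-H3.3 ESCs, Gys1 became 0.0104 with DESeq2, 0.0105 with RLE and 0.0008 with chromosome 8 left out, and Pygb 0.0025 and 0.002. For H3.3K27M in ESCs, Ugp2 became −0.0074 with RLE and −0.0187 without the filter. For H3.3K27L, Gbe1 became 0.0028 without the filter and 0.0277 with the block at 24 and 72 h, and 0.0106 with the block over all times. Pygb became −0.0268 with GSK343 and Ppp1r3b −0.0159 at 72 h of RA, each without the filter, and Ppp1r3c −0.0023 in OPCs with the block. For OPCs against ESCs, Pygb passed with DESeq2 and RLE (0.48).

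Counts over all genes depended on the setting. H3.3K27L in ESCs over all times gave 1299 genes, 518 with the fold demanded, 865 with only the compared libraries and 328 to 1900 without 1 library. At 24 and 72 h it gave 106, 416 without the filter, 223 with the block and 22 to 105 without 1 library. GSK343 gave 0 over all times and 114 without the filter, and at 24 and 72 h 0 and 1. Dox times in WT-H3.3 ESCs gave 16, 10 with the fold demanded, 102 without the filter, 0 with only the compared libraries and 1 to 5 without 1 library. H3.3K27M in ESCs gave 2 over all times, 423 without the filter, 33 with the block and 0 with only the compared libraries, and at 24 and 72 h 0, 63 and 2. H3.3K27M in RA gave 2, 29 with DESeq2, 133 without the filter, 0 with times pooled and 1 to 469 without 1 library. H3.3K27L in RA gave 877, 453 with the fold demanded, 1323 without the filter, 0 with times pooled and 537 to 1897 without 1 library. RA at 72 h against 24 h gave 8993 and 5549 with the fold demanded, and H3.3K27M in OPCs 6804 and 3674. Depth limits Ppp1r3c and Pygl in ESCs most, with 2 to 24 and 1 to 85 reads a library outside the library of 68378 counts.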
